A study of Rattus norvegicus with 12 samples.

Results

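Serotonin handling in the lung was described through 7 genes, taken by symbol from the deposited table of 19230 rows: Tph1, Slc6a4, Htr1b, Htr2a, Htr2b, Maoa and Maob. All 7 were found, each in a row of its own, and all 7 passed the level filter of the test. Outside the brain serotonin is made from tryptophan by the hydroxylase TPH1 and the decarboxylase DDC, and most of it in blood travels in platelets. The lung endothelium takes it up from plasma through the transporter SLC6A4, and the mitochondrial monoamine oxidases MAOA and MAOB break it down inside cells. In pulmonary arteries serotonin constricts and promotes growth of smooth muscle through receptors such as HTR1B, HTR2A and HTR2B, which is why the pathway has long been studied in pulmonary hypertension.

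RNA of Sprague-Dawley rats was sequenced in 4 groups of 3 libraries. Whole lung was taken 4 days into SuHx from animals labelled Ahr-KO and from wild-type (WT) animals. Endothelial cells (ECs) came from WT rats in normoxia, with day 4 on their label and 0 in their column names, and whole lung from WT rats in normoxia at day 0. SuHx is the pairing of the VEGF receptor blocker SU5416 (Sugen) with low oxygen, used to induce pulmonary hypertension in rats. Groups with 1 of the agents alone and an Ahr-KO group in normoxia were not analysed here, and the labels say neither which part of Ahr was deleted nor how the ECs were isolated. Libraries are named below by group and by the suffix (0, 1 or 2) of their column, and values are always listed in that order. What the replicates are is not stated, so p-values measure the spread between libraries, which may be technical.

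The unit is a signal, an estimated read count that the authors divided by 1 factor per library, so that 1 read is worth 0.745 to 1.25. Libraries held 20.04 M to 28.6 M reads by this measure. Each of the 84 values of the 7 genes came out as whole reads (tolerance 0.05). The Ahr row ran from 1800.0 to 2523 in the lungs labelled Ahr-KO, 1740 to 3073 in WT SuHx lungs and 3103 to 5565 in normoxia lungs, so it does not check the genotype, while Cyp1a1, the classical target of the receptor, ran from 3.87 to 5.32 in the lungs labelled Ahr-KO, 65459 to 75070.5 in WT SuHx lungs and 39.2 to 476 in normoxia lungs. All 12 endothelial markers were higher in the ECs than in normoxia lung, yet the 7 alveolar epithelial markers still summed to 88795 to 198416 there, against 404683 to 600880 in normoxia lung. The 10 cardiac muscle markers stood apart in 2 libraries, at 26833 in Ahr-KO replicate 2 and 12177 in normoxia replicate 2. The other lungs gave 884 to 7348. A call of the 7 genes that was lost without both libraries is named as such. All lungs labelled Ahr-KO, at 5814 or more, lay above all WT SuHx lungs, at 2819 to 3653. Leaving out both libraries does not remove that difference. Its median log2 fold change over the markers was 3.96, with none of the 10 called.

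Start-site sequences are shown for Htr1b, the gene whose values differed most between the SuHx groups, and for Maoa and Maob, which fell together. They are the 250 bases before the annotated start in RefSeq's GRCr8 assembly, which is not the rn6 build named in the submitters' processing notes, and lie at chr8:91414816-91415065 on the minus strand for Htr1b, chrX:8681373-8681622 on the minus strand for Maoa and chrX:8490155-8490404 on the plus strand for Maob. Capitals mark GCGTG, the core of the site to which the AhR dimer binds, on either strand.
Htr1b: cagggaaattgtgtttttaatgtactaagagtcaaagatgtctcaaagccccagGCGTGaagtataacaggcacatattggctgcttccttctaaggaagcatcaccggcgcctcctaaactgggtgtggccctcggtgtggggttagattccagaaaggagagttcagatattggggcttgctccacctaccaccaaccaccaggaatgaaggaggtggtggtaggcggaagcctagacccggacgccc
Maoa: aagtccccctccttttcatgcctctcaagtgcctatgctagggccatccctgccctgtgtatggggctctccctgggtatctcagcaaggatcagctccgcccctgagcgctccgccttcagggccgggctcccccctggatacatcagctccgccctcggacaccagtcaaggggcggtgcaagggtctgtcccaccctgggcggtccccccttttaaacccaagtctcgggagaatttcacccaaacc
Maob: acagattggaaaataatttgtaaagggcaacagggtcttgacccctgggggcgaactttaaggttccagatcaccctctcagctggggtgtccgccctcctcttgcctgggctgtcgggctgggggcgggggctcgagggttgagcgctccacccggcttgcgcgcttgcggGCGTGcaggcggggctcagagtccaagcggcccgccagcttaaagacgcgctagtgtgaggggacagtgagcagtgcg
Promoters of 5 of the 7 genes were matched by symbol, and the search window ran from 250 bases before to 50 after the start. GCGTG was present 196 bases before and 27 bases after the Htr1b start and 78 bases before the Maob start, and not in the windows of Maoa, Htr2b or Tph1. Of all 33469 promoters in that table, 29.7% hold GCGTG on either strand. ACGTG, a form of the core recognised by hypoxia-inducible factors, was found 88 bases before the Tph1 start and in none of the other 4 windows. Of all promoters, 19.3% hold it. Those factors also recognise GCGTG, so the GCGTG matches are not particular to AhR. These matches describe the letters and are no evidence of binding.

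With SuHx, the transporter and both oxidases were lower in WT lung, and so was Htr1b. Differences below are log2 fold changes of signal plus 1, tested two-sided with limma over all rows with a mean of at least 1 and adjusted by Benjamini-Hochberg, with a call at an adjusted p under 0.05. In WT SuHx lung against normoxia lung, 4 of the 7 genes were called lower, 0 higher and 3 neither, where 13.5% of all 15234 rows were called, 6.39% as lower and 7.08% as higher. In the lungs labelled Ahr-KO against normoxia lung, 3 were called lower, 0 higher and 4 neither, where 9.75% of rows were called, 3.8% as lower and 5.95% as higher. These comparisons share the WT normoxia libraries, so in the one with the lungs labelled Ahr-KO genotype and treatment change together. Where groups are said below not to overlap, this describes 3 libraries a group. It is no test, and the share of all rows without overlap is not given. The median log2 fold change of the 7 genes was -0.44 in WT and -0.05 in the lungs labelled Ahr-KO, against -0.04 and -0.03 over all rows. The middle gene was Maoa in WT and Htr2b in the lungs labelled Ahr-KO, while Slc6a4, Maoa and Maob were called lower in both. For Ahr-KO against WT SuHx lung the median was 0.11.

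**Figure D1:**
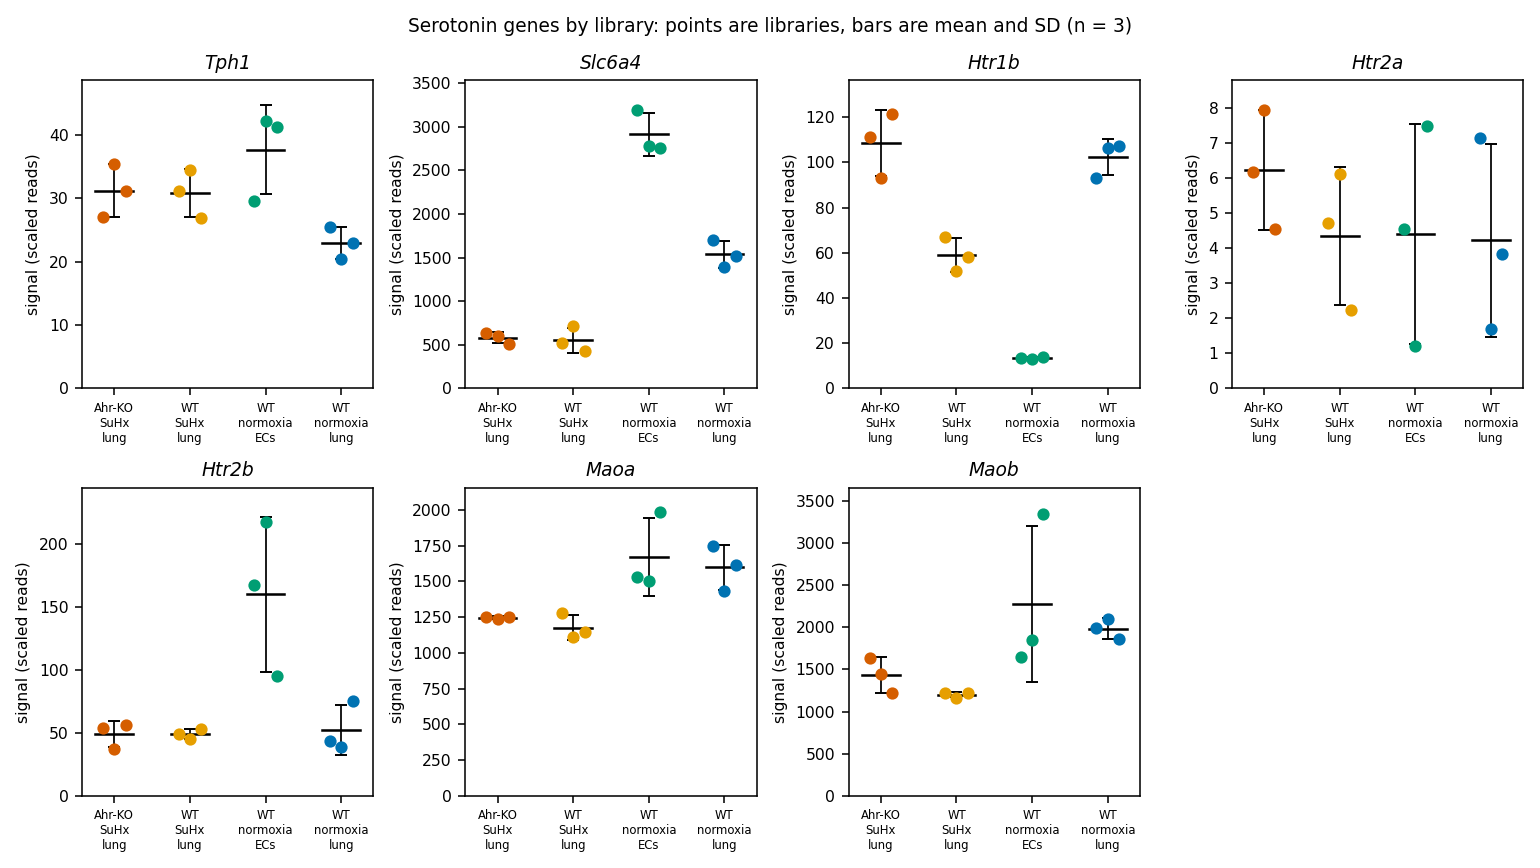
Signal (scaled reads, linear axes from 0) of the 7 serotonin genes in every library, by group, with the group mean and SD (n = 3). The SuHx lungs of both genotypes lie below all normoxia lungs for Slc6a4, Maoa and Maob, and for Htr1b those of the WT group alone do, at 52.0 to 67.2.

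Tph1, the rate-limiting enzyme of serotonin synthesis outside the brain, was low in every library. It gave 27.1, 35.4 and 31.2 in the lungs labelled Ahr-KO, 31.2, 34.4 and 26.8 in WT SuHx lung, 29.6, 42.2 and 41.2 in the ECs and 25.5, 20.5 and 23.0 in normoxia lung, or 24 to 45 reads a library. Normoxia lung was the lowest group and did not overlap with the other groups, which overlapped with each other. None of these differences passed the test over all rows. The log2 fold change was 0.42 ± 0.24 (SE) for the lungs labelled Ahr-KO against normoxia lung (limma adjusted p = 0.304) and 0.41 ± 0.24 for WT SuHx against normoxia lung (limma adjusted p = 0.279), with 95% intervals of -0.13 to 0.97 and -0.14 to 0.96. For the ECs it was 0.68 ± 0.28 (limma adjusted p = 0.0748), with a call in 3 of 14 alternative settings, among them quantile normalization, where it was 1.46. Markers of cells that can make serotonin in rodent lung were read beside it. Of the 6 tested neuroendocrine markers none was called in either SuHx comparison, with median log2 fold changes of 0.42 in the lungs labelled Ahr-KO and 0.38 in WT, and they summed to 38.1 to 53.2 in the lungs labelled Ahr-KO, 35.0 to 42.1 in WT SuHx lung and 23.0 to 48.5 in normoxia lung, with Grp, the gastrin-releasing peptide gene, at 0 throughout. Of the 8 mast cell markers, Kit, which endothelium and other cells also express, was the called one, lower in both. The mast cell markers summed to 2392 to 3970 in the lungs labelled Ahr-KO, 3177 to 3795 in WT SuHx lung and 5999 to 6511 in normoxia lung. Kit made up most of these sums, with means of 2598, 2615 and 5348 in that order. The median log2 fold change of the 8 markers was -0.07 in the lungs labelled Ahr-KO and -0.04 in WT. In the ECs against normoxia lung 2 of the 8 were called higher and 0 lower, with a median of 0.36. Their sum there was 10979 to 15136, with Kit at a mean of 12027. Of the 5 neuroendocrine markers tested in the ECs none was called. The part of either marker list in the Tph1 values was not tested.

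Slc6a4, the high-affinity serotonin transporter, showed the largest fall of the 7 genes in lung. Its signal was 633, 603 and 513 in the lungs labelled Ahr-KO, 516, 711 and 426 in WT SuHx lung, 3194, 2784 and 2758 in the ECs and 1698, 1388 and 1523 in normoxia lung. All 6 SuHx lungs lay below all 3 normoxia lungs, the SuHx groups overlapped with each other, and the ECs lay above every lung. It was 2.63-fold lower in the lungs labelled Ahr-KO (log2 ratio -1.40 ± 0.18, limma adjusted p = 0.00140) and 2.84-fold lower in WT SuHx lung (-1.51 ± 0.18, limma adjusted p = 0.00109), each against normoxia lung. Between the SuHx groups, Ahr-KO against WT, the difference was 0.11 ± 0.18 (limma adjusted p = 0.808, 95% interval -0.29 to 0.51). In the ECs it was 1.90-fold higher than in normoxia lung (0.92 ± 0.11, limma adjusted p = 0.000375). These calls held in every alternative that was run, with adjusted p up to 0.0161.

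Slc6a4 belongs to the lung endothelium, so its fall was read beside the endothelial markers. In whole lung, fewer cells of a type and less RNA per cell cannot be told apart. Of the 12 markers, the lungs labelled Ahr-KO had 1 called higher, 6 called lower and 5 not called, and WT SuHx lung gave equal counts, with median log2 fold changes of -0.62 and -0.64. Their signals summed to 68191 to 93921 in the lungs labelled Ahr-KO, 81548 to 91022 in WT SuHx lung and 122976 to 130462 in normoxia lung, and none was at 0. The markers did not move as 1 group. The junction protein Pecam1 (log2 ratio 0.12 ± 0.15 in the lungs labelled Ahr-KO and 0.30 ± 0.15 in WT) and the endothelial cadherin Cdh5 (-0.22 ± 0.21 and -0.32 ± 0.21) were not called, and the sialomucin Emcn rose (1.13 ± 0.13 and 1.05 ± 0.13). The surface lectin Clec14a (-1.55 ± 0.18 and -1.52 ± 0.18), the diaphragm protein Plvap (-1.73 ± 0.16 and -1.11 ± 0.16) and the TGF-beta co-receptor Eng (-0.88 ± 0.14 and -1.23 ± 0.14) fell.

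Slc6a4 was also set against the mean log2 level of the 12 endothelial markers within each library, a measure added after the values had been seen. This difference was -3.34, -3.28 and -3.17 in the lungs labelled Ahr-KO, -3.47, -3.10 and -3.75 in WT SuHx lung, -2.87, -3.10 and -2.91 in the ECs and -2.28, -2.53 and -2.49 in normoxia lung. Every SuHx lung lay below every normoxia lung. The transporter was thus 0.83 lower on the log2 scale relative to these markers in the lungs labelled Ahr-KO and 1.01 lower in WT SuHx lung. Each had an exact two-sided permutation p of 0.10, the smallest that 3 against 3 libraries allow. Groups that do not overlap always give this p, so it adds nothing to that description. The size depends on the marker. Against 1 marker at a time the difference in WT ran from -2.56 (Emcn) to 0.01 (Clec14a) and was negative for 11 of 12, and in the lungs labelled Ahr-KO it ran from -2.53 to 0.34 and was negative for 10 of 12, Clec14a and Plvap having fallen by as much or more. In the ECs against normoxia lung Slc6a4 was 0.53 lower relative to the mean of the markers (exact permutation p = 0.10). Against 1 marker at a time that difference ran from -1.10 to 0.13 (Tek) and was negative for 11 of 12.

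**Figure D2:**
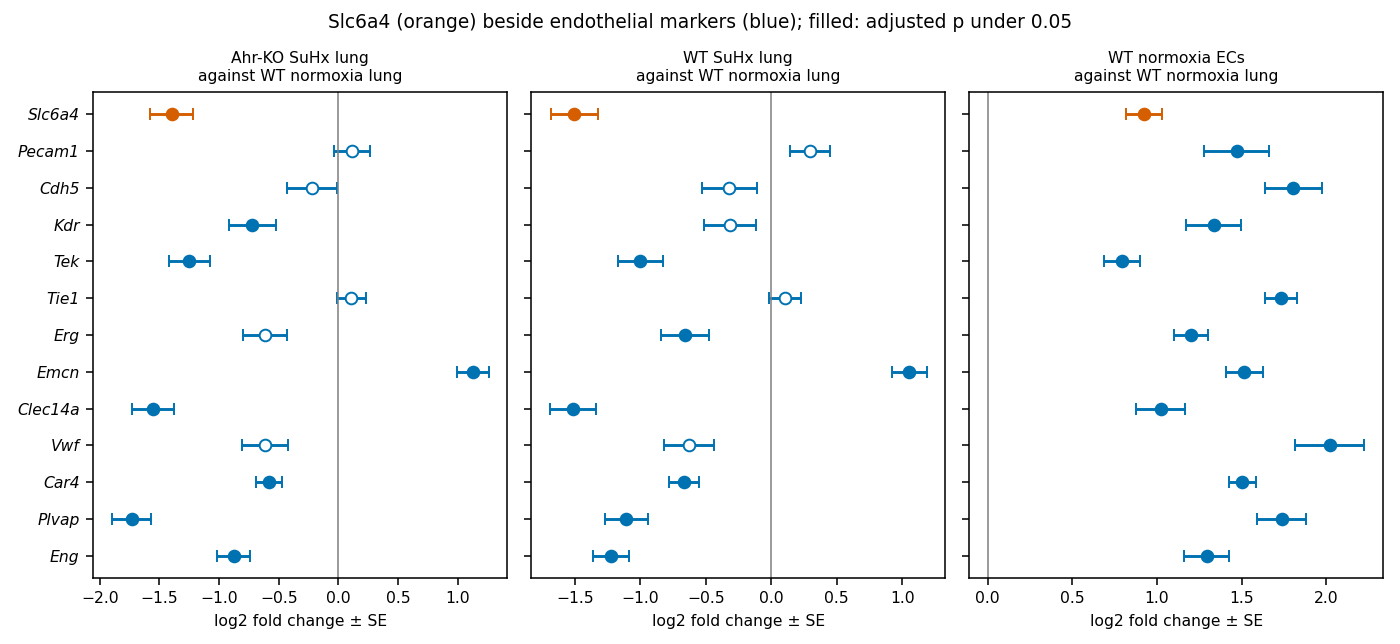
Log2 fold changes (± SE) of Slc6a4 and of 12 endothelial markers in 3 comparisons with WT normoxia lung, filled where the adjusted p was under 0.05. Under SuHx the markers spread from above 0 (Emcn, 1.05 in WT) to about the level of Slc6a4 (Clec14a, -1.52 in WT), while all lie above 0 in the ECs.

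Htr1b, a Gi-coupled receptor that mediates constriction of pulmonary arteries, was lower in WT SuHx lung and in the ECs than in normoxia lung. Its signal was 111, 93.0 and 122 in the lungs labelled Ahr-KO and 67.2, 52.0 and 58.1 in WT SuHx lung, or 105 to 160 against 68 to 78 reads. It was 13.7, 13.3 and 13.7 in the ECs and 93.1, 107 and 107 in normoxia lung. The WT SuHx lungs lay below all lungs of the other 2 lung groups, which overlapped with each other, and the ECs lay lowest. In WT SuHx lung Htr1b was 1.73-fold lower than in normoxia lung (log2 fold change -0.79 ± 0.19, limma adjusted p = 0.0277). That call was lost when any 1 of the 6 libraries was left out and when only these groups were fitted, with adjusted p up to 0.0786. The lungs labelled Ahr-KO differed from normoxia lung by 0.08 ± 0.19 (limma adjusted p = 0.830, 95% interval -0.35 to 0.51).

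The lungs labelled Ahr-KO were 1.82-fold above WT SuHx lung for Htr1b (log2 fold change 0.87 ± 0.19, unadjusted p = 0.00128). Over all rows this did not pass (limma adjusted p = 0.106), nor did it in any of 16 alternatives (0.0672 to 0.325). In this comparison limma called 0 of the 7 genes, with 1 (Htr1b) at an unadjusted p under 0.05, where 0.499% of all rows were called, 0.197% as higher and 0.302% as lower. In the ECs Htr1b was 7.09-fold lower than in normoxia lung (-2.83 ± 0.23, limma adjusted p = 0.000102), at 11 to 12 reads a library. With quantile normalization that difference was smaller, at -2.09. Of the 10 markers of smooth muscle and pericytes, cells in which HTR1B acts, 5 were higher than in WT normoxia lung, 1 lower and 4 not called. These counts were equal in WT SuHx lung and in the lungs labelled Ahr-KO. They summed to 50356 to 72383 in the lungs labelled Ahr-KO, 52892 to 72440 in WT SuHx lung, 23301 to 29384 in the ECs and 33694 to 43107 in normoxia lung. These sums include rows that merge Pdgfrb with the macrophage gene Csf1r (mean 9848 in normoxia lung) and Myh11 with Fopnl. Pdgfrb is named in 2 rows, of which only the one merged with Csf1r was used. None of the markers was at 0, and their part in the Htr1b values was not tested.

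Htr2a, the Gq-coupled receptor through which serotonin contracts vascular smooth muscle, was close to the limit of detection. It gave 6.19, 7.97 and 4.56 in the lungs labelled Ahr-KO, 4.73, 6.12 and 2.23 in WT SuHx lung, 4.55, 1.21 and 7.49 in the ECs and 7.16, 1.70 and 3.83 in normoxia lung. These stood for 1 to 9 reads a library, and all groups overlapped. No difference was detectable at this depth, and the 95% intervals ran from -0.57 to 1.73 for the lungs labelled Ahr-KO, -1.05 to 1.25 for WT SuHx lung and -1.58 to 1.55 for the ECs, each against normoxia lung.

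Htr2b, the Gq-coupled receptor required for experimental hypoxic pulmonary hypertension in mice, was highest in the ECs. It gave 54.2, 37.2 and 56.2 in the lungs labelled Ahr-KO, 49.2, 45.1 and 52.9 in WT SuHx lung, 167, 217 and 94.9 in the ECs and 43.8, 38.4 and 75.2 in normoxia lung. The ECs lay above all lungs, and the 3 lung groups overlapped. The ECs were 2.97-fold above normoxia lung (log2 fold change 1.57 ± 0.38, limma adjusted p = 0.0107), a call kept in all 14 alternatives, with a larger value of 2.19 under quantile normalization. Fibroblast markers went the other way, all 7 being lower in the ECs, with a median log2 fold change of -4.47 and sums of 5658 to 9818 in the ECs against 29308 to 40953 in normoxia lung. The difference from WT normoxia lung was -0.05 ± 0.30 in the lungs labelled Ahr-KO and -0.04 ± 0.30 in WT SuHx lung, with 95% intervals of -0.71 to 0.61 and -0.70 to 0.63.

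In the ECs against normoxia lung, 2 of the 7 genes were called higher (Slc6a4 and Htr2b), 1 lower (Htr1b) and 4 neither, where 56.2% of all 15186 rows were called, 26.1% as higher and 30.1% as lower. This comparison depends on scaling. With the deposited values 3969 rows were higher and 4570 lower. With the same total in each library these became 2816 and 6016, and the median log2 fold change of all rows moved to -0.29 from -0.05.

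Maoa and Maob, which oxidise serotonin and other amines in the outer mitochondrial membrane, are neighbours on chromosome X, with no protein-coding gene between them and no overlap in the GRCr8 annotation. Maoa, with the higher affinity for serotonin, gave 1249, 1238 and 1254 in the lungs labelled Ahr-KO, 1277, 1112 and 1145 in WT SuHx lung, 1528, 1506 and 1989 in the ECs and 1749, 1436 and 1614 in normoxia lung. The SuHx lungs lay below the normoxia lungs and overlapped with each other, and the ECs overlapped with normoxia lung. Maoa was 1.28-fold lower in the lungs labelled Ahr-KO (log2 ratio -0.35 ± 0.10, limma adjusted p = 0.0492) and 1.36-fold lower in WT SuHx lung (-0.44 ± 0.10, limma adjusted p = 0.0186). The first call was lost in 13 of 16 alternatives, among them leaving out both libraries with much cardiac RNA or any 1 of the 6 libraries except normoxia replicate 1, with adjusted p up to 0.169. The second was lost without WT SuHx replicate 2 or normoxia replicate 0, with adjusted p up to 0.0756.

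Maob, the form that prefers phenylethylamine and is the form found in human platelets, gave 1642, 1449.6 and 1216 in the lungs labelled Ahr-KO, 1218, 1164 and 1226 in WT SuHx lung, 1651, 1849.7 and 3341 in the ECs and 1989, 2103 and 1864 in normoxia lung. Again all SuHx lungs lay below all normoxia lungs, and EC replicate 2 stood above the other libraries. Maob was 1.39-fold lower in the lungs labelled Ahr-KO (log2 ratio -0.48 ± 0.11, limma adjusted p = 0.0291) and 1.65-fold lower in WT SuHx lung (-0.72 ± 0.11, limma adjusted p = 0.00407). The WT call held in all 16 alternatives, and the other was lost in 9 of 16, again among them without both of those libraries and without Ahr-KO replicate 1 or 2 or normoxia replicate 0 or 1, with adjusted p up to 0.206. Between the SuHx groups, Ahr-KO against WT, Maob differed by 0.24 ± 0.11 (limma adjusted p = 0.377) and Maoa by 0.08 ± 0.10 (limma adjusted p = 0.715). For the ECs against normoxia lung the differences were 0.13 ± 0.25 for Maob and 0.06 ± 0.13 for Maoa, not called, and their sign turned when each library was given the same total. None of the 8 platelet markers was called in either SuHx comparison (sums of 2726 to 4060 in the lungs labelled Ahr-KO, 2861 to 5769 in WT SuHx lung and 2854 to 3659 in normoxia lung), and the 8 erythroid markers were all higher in both. The platelet sums include rows that merge Itga2b with Gpatch8 (mean 2339 in normoxia lung) and Treml1 with Trem2. The median log2 fold change of the platelet markers was 0.42 in the lungs labelled Ahr-KO and 0.43 in WT.

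**Figure D3:**
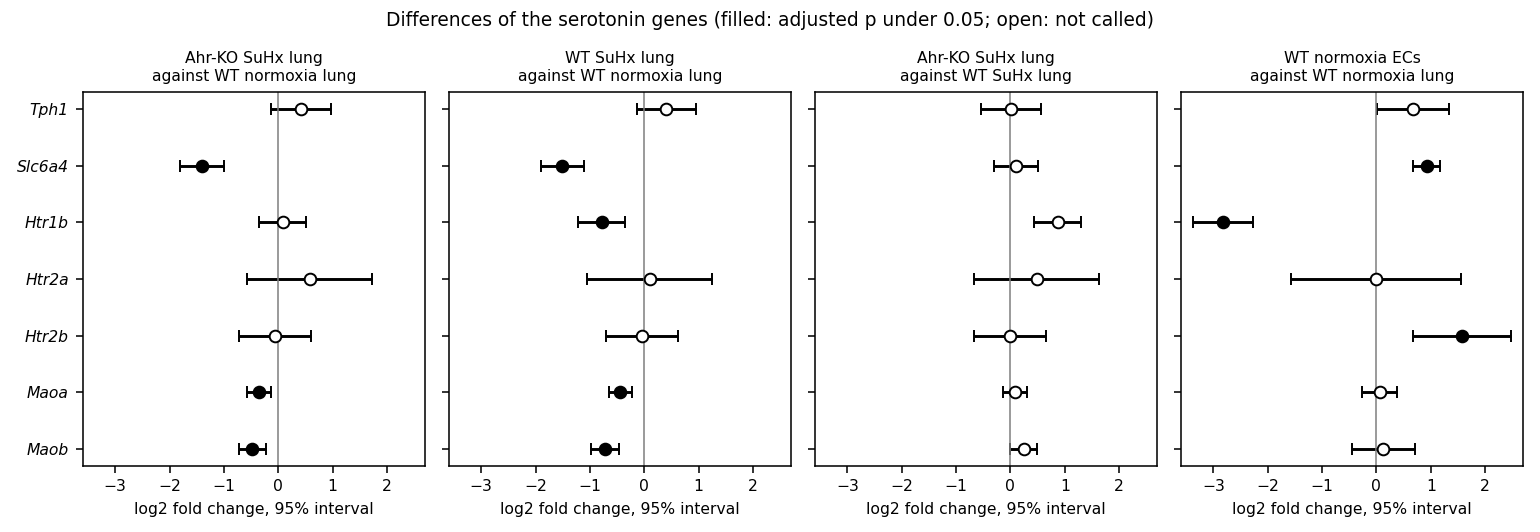
Log2 fold changes with 95% intervals for the 7 serotonin genes in 4 comparisons, filled where the adjusted p was under 0.05. Slc6a4, Maoa and Maob lie below 0 in both SuHx comparisons with normoxia, and Htr1b in the WT one and in the ECs.

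The rest of the pathway was read from 44 further genes in 6 lists, of which 31 were tested in lung. In WT SuHx lung against normoxia lung 3 were called higher, 2 lower and 26 neither. In the lungs labelled Ahr-KO against normoxia lung 4 were called higher, 1 lower and 26 neither. Either way 16.1% of those tested were called, close to the 13.5% and somewhat above the 9.75% of all rows. Between the SuHx groups limma called 0, with 6 at an unadjusted p under 0.05. The median log2 fold change of the 31 was 0.12 in the lungs labelled Ahr-KO and 0.09 in WT, against -0.03 and -0.04 over all rows.

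The genes called higher were the merged Ddc row, Gch1, Slc7a5 and, in the lungs labelled Ahr-KO, Spr, and those called lower were Aldh2 and, in WT, Plcb4. The row that merges Ddc, the decarboxylase that makes serotonin from its precursor, with Fignl1 averaged 762 ± 48.7 (SD, n = 3) in the lungs labelled Ahr-KO, 683 ± 40.6 in WT SuHx lung and 327 ± 8.09 in normoxia lung. It was 2.32-fold and 2.08-fold above normoxia lung (limma adjusted p = 0.000178 and 0.000389), and its reads cannot be split between these genes. Gch1, which starts synthesis of the tetrahydrobiopterin that TPH1 needs, was 1.86-fold higher in the lungs labelled Ahr-KO and 1.88-fold higher in WT SuHx lung (limma adjusted p = 0.0122 and 0.0102). Spr, sepiapterin reductase, which completes that cofactor, was 2.10-fold higher in the lungs labelled Ahr-KO (limma adjusted p = 0.0173) and not called in WT (log2 fold change 0.55 ± 0.22), and the difference between the genotypes was not called either (0.52 ± 0.22, limma adjusted p = 0.356). Slc7a5, an importer of tryptophan and other large amino acids, was 2.16-fold and 2.00-fold higher (limma adjusted p = 0.000679 and 0.00150). The Gch1 and Spr calls in the lungs labelled Ahr-KO were lost in 4 and 5 of 16 alternatives, both without Ahr-KO replicate 1 and without normoxia replicate 0, and Spr also without normoxia replicate 1.

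Downstream, Aldh2, the mitochondrial aldehyde dehydrogenase that acts on the aldehyde left by the oxidases, averaged 5424 ± 535 in the lungs labelled Ahr-KO, 6801 ± 1148 in WT SuHx lung and 9610.5 ± 919 in normoxia lung (SD, n = 3). It was 1.77-fold lower in the lungs labelled Ahr-KO (limma adjusted p = 0.00642) and 1.42-fold lower in WT SuHx lung (limma adjusted p = 0.0425, lost in 10 of 16 alternatives, among them leaving out any 1 of the 6 libraries except WT SuHx replicate 2). Plcb4, a phospholipase C isoform on the Gq route used by HTR2 receptors, was 2.34-fold lower in WT SuHx lung (limma adjusted p = 0.0140) while the lungs labelled Ahr-KO gave -0.76 ± 0.25 on the log2 scale (limma adjusted p = 0.0900, not called). The vesicular transporter Slc18a2 gave 0.10 ± 0.50 and 0.09 ± 0.50 and was not called. Of the 11 other serotonin receptors, 9 had a mean signal under 1 in every group, 3 of them at 0 in all libraries, and Htr1f passed that level in the ECs alone, at 0 to 12.5. Htr2c ran from 33.4 to 41.0 in the lungs labelled Ahr-KO, 23.8 to 39.7 in WT SuHx lung, 3.74 to 66.3 in the ECs and 39.0 to 47.7 in normoxia lung, and was not called in any comparison.

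In the ECs against normoxia lung 9 of 30 tested pathway genes were called higher, 9 lower and 12 neither, a share near the 56.2% of all rows. Gch1 was 5.43-fold higher there (limma adjusted p = 0.000112), Plcb4 3.22-fold (limma adjusted p = 0.000715) and Slc7a5 2.84-fold (limma adjusted p = 8.92e-05). Also higher were Slc3a2, the partner chain of SLC7A5, the G protein subunit Gnaq, Plcb1, Arrb2, S100a10 and the transglutaminase Tgm2. Lower were the merged Ddc row (5.07-fold, limma adjusted p = 5.22e-05), the tetrahydrobiopterin genes Pts, Qdpr and Pcbd1, the low-affinity amine carrier Slc22a3, the dehydrogenases Aldh2 and Aldh1a1, the integrin Itgb3 and the merged row of Asmt and Zfp157. The calls of Pts, Tgm2 and the Asmt row were lost in 1, 3 and 4 of 14 alternatives, each with quantile normalization, Tgm2 among them without EC replicate 1 and the Asmt row without EC replicate 0 or 1 or normoxia replicate 0. Quantile normalization also moved Pcbd1 to -1.43, against a log2 fold change of -2.02 as deposited, and Slc22a3 to -1.08, against -1.84.

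**Figure D4:**
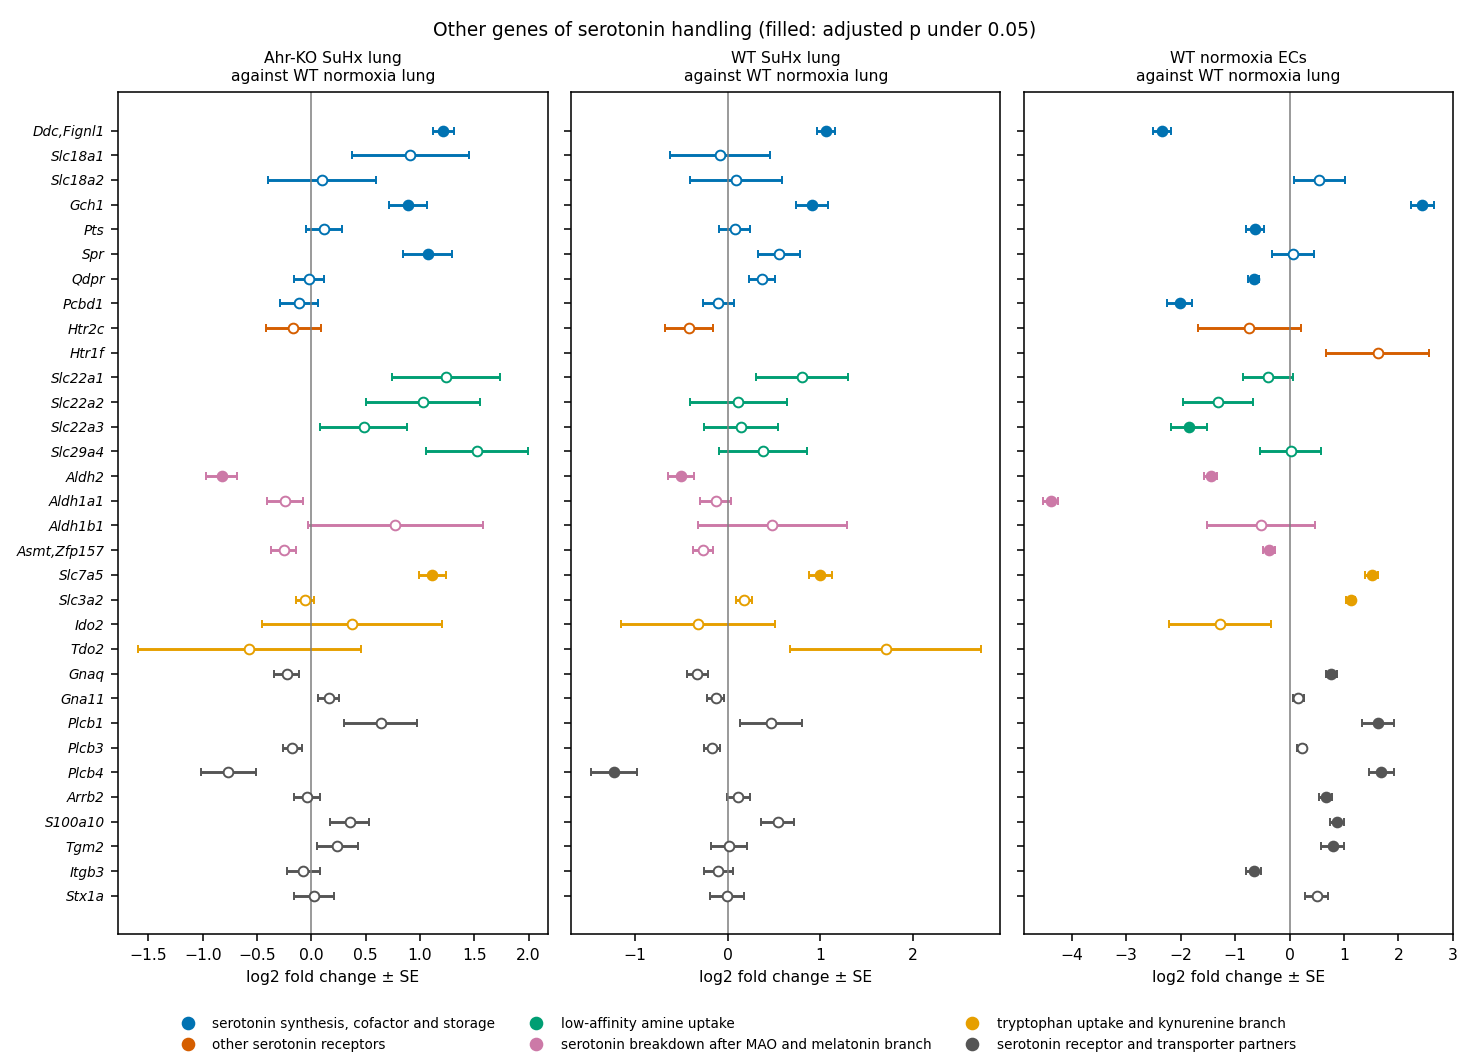
Log2 fold changes (± SE) of the other tested genes of serotonin handling in 3 comparisons with WT normoxia lung, coloured by list and filled where the adjusted p was under 0.05. The merged Ddc row, Gch1 and Slc7a5 lie above 0 and Aldh2 below 0 in both SuHx comparisons.

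Among 13071 other rows with a mean signal of at least 20, those most like each gene over the 9 lung libraries were found by Pearson's r of the log2 values, as a description of libraries that share 3 groups. For Slc6a4 they were the merged row of Pctp and Tmem100 (0.99), Pcmtd1 (0.98) and the merged row of Fam117b and Bmpr2 (0.98). Bmpr2 is the receptor gene most often mutated in heritable pulmonary arterial hypertension. For Maob they were Ushbp1, Itpkb and Unc5d (each 0.98), and for Maoa the adrenergic receptor gene Adra1a (0.97), the merged row of Acyp1 and Mlh3 (0.96) and the somatostatin receptor gene Sstr1 (0.96). For Htr1b they were Lgi4 (0.97), Adam11 (0.95) and Fam107a (0.94). Tph1 ran closest to the matrix genes Fn1 (0.95) and Col5a2 (0.94) and to Wisp1 (0.93), which encodes a matricellular protein. Htr2b ran closest to Jrk (0.95), Rhov (0.91) and Arpp21 (0.91).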

How the data were processed

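RNA was measured by sequencing in 12 libraries, and all 12 columns were used. The deposited unit is a signal, which the authors made from estimated read counts and 1 factor per library, as read from the values: 80.9% to 81.8% of values above 0 are whole reads within 0.05. The rn6 build and FastQC come from the submitters' processing notes. Alignment, counting, scaling and strand handling were each not given in the sources used here. Genes that overlap or resemble each other may therefore share reads. Column names gave the groups, and their suffixes were tied to no single sample.

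Rows with a mean of at least 1 entered linear models of log2(signal + 1), fitted in limma 3.58.1 under R 4.3.3 with a trended variance prior, after a check on simulated data. The lung comparisons came from 1 fit of 9 libraries, and the ECs with normoxia lung from a fit of 6. Members, lists and markers were chosen with earlier results of these data known, so no p was adjusted over a list and no list was tested as a set. Of the pathway genes, all that were called are named, and the closest rows were the 3 with the highest r. Column suffixes were checked as pairs by correlating deviations from group means. For the lungs labelled Ahr-KO and normoxia lung, every same-suffix pair correlated above 0.1 (0.12 to 0.24), against -0.23 to 0.07 for unlike suffixes. Blocking on the suffix changed no call of the 7 genes there. The scripts used Python 3.11.15, pandas 2.3.3, SciPy 1.17.1 and matplotlib 3.10.9.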

Additional observations from a re-analysis of the deposited data

How the results depend on the processing

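Slc6a4 kept its direction and call under all alternatives in the 3 comparisons with normoxia lung, as did Htr1b and Htr2b in the ECs and Maob in WT SuHx lung. Against 4 genes called in WT SuHx lung, leaving out 1 library gave 2 to 3 (2 without WT SuHx replicate 2 or normoxia replicate 0). Against 3 in the lungs labelled Ahr-KO, it gave 1 to 2 (1 without Ahr-KO replicate 1 or 2 or normoxia replicate 0), and 1 gene (Slc6a4) was called without limma's trend, with all 12 libraries, with only the groups compared, with the cardiac markers as covariate and without both libraries rich in cardiac RNA. The 2052 rows called for WT SuHx became 3385 with the replicate block, 3080 with the cardiac covariate and 862 to 2277 with 1 library left out (862 without WT SuHx replicate 0, 1115 without WT SuHx replicate 2, 953 without normoxia replicate 0 and 1148 without normoxia replicate 1). The 1485 rows of the lungs labelled Ahr-KO against normoxia became 544 with the covariate and 721 to 1882 with 1 library left out (976, 721 and 875 without Ahr-KO replicates 0, 1 and 2, and 795 and 888 without normoxia replicates 0 and 1), and with the same total in each library the split of 906 higher and 579 lower became 1012 and 382. The 76 rows of Ahr-KO against WT SuHx became 47 without the trend, 126 with all 12 libraries, 19 with the covariate and 32 to 55 with 1 library left out (39 or fewer without any library but Ahr-KO replicate 2). The cause was not tested.

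Directions reversed for members that were not called. Htr2b in WT SuHx gave 0.00901 with the same totals, 0.17 with the covariate and 0.25 without both libraries, and -0.22 to 0.25 with 1 library left out. In the lungs labelled Ahr-KO against normoxia it gave 0.0164 with the same totals, 0.13 without both libraries and -0.24 to 0.24 with 1 left out, and Htr1b gave -0.13 with quantile normalization, -0.0214 with the covariate and -0.00434 to 0.19. In Ahr-KO against WT SuHx, Tph1 gave -0.22 with quantile normalization and -0.0760 to 0.11 with 1 left out, Htr2b 0.00738 with the same totals, -0.12 to 0.17 with 1 left out and, with no reversal, -0.69 with the covariate, and Slc6a4 -0.0602 to 0.31. In the ECs, Htr2a gave 0.52 with quantile normalization, 0.0745 with the covariate and -0.44 to 0.53, Maoa -0.10 with quantile normalization, -0.18 with the same totals and -0.0718 to 0.13, and Maob -0.0763 with quantile normalization, -0.11 with the same totals and -0.18 to 0.33. Htr2a in WT SuHx ran from -0.30 to 0.49 with 1 library left out.

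The replicate block changed no member's call. Same-suffix libraries correlated at -0.02 to 0.17 for WT SuHx and normoxia, against -0.21 to 0.13 for libraries of unlike suffix. For Ahr-KO and WT SuHx the ranges were 0.01 to 0.28 and -0.26 to 0.29. For the ECs and normoxia they were 0.03 to 0.15 and -0.15 to 0.12. In each of these cases the ranges overlap. For Ahr-KO and normoxia lung they did not, at 0.12 to 0.24 for the same suffix and -0.23 to 0.07 for unlike suffixes. There the replicate block raised the rows called from 1485 to 2171. So few pairs cannot show whether the suffix marks a shared batch or pair. With a mean of at least 5, Htr2a was not tested in any comparison. The EC fit holds only 1 of the libraries rich in cardiac RNA, so leaving out both repeats leaving out normoxia replicate 2. At 1 to 9 reads Htr2a, and at 24 to 45 reads Tph1, limit what can be seen.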
